A study of Mus musculus with 60 samples.

Results

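The neurotrophins Bdnf and Ntf3 and the receptors Ntrk2, Ntrk3 and Ngfr were followed as 5 genes, each matched by symbol to 1 of the 47597 entries of every table. They were read in 60 brain RNA-Seq libraries of c57BL-6N mice aged 3 months. The labels form 10 groups of 6 libraries, 3 male and 3 female each. For each of cortex and striatum, 3 groups come from the Δ12 line (+/+, Δ12/+ and Δ12/Δ12), whose edited allele lacks part of Htt exon 12, and a further 2 from the KO line (+/+ and KO/+), whose edited allele is a larger deletion from 1 founder that also removed the exon's splice donor. All alleles were made by editing C57BL/6 embryonic stem cells, no group carries a transgene or a Cre driver, and no group was treated.

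Neurotrophins are secreted proteins that keep neurons alive and shape their synapses. BDNF binds the tyrosine kinase receptor TrkB, encoded by Ntrk2, and NT-3, encoded by Ntf3, binds TrkC, encoded by Ntrk3, while the p75 receptor, encoded by Ngfr, binds every neurotrophin and their precursors. Striatal neurons make little Bdnf mRNA and receive most of their BDNF protein along axons from cortical neurons, a transport in which huntingtin takes part.

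The tissue labels did not match the markers of the 2 tissues, which bears on every value that follows. Slc17a7, the vesicular glutamate transporter of cortical projection neurons, was above 100 FPKM as deposited in 30 libraries, at 120.8 to 233.8, and at 4.81 to 64.8 in the other 30. The first set, called cortex-like, held every Δ12-line +/+ and Δ12/+ library and the males labelled Δ12/Δ12. The second, called striatum-like, held the females labelled Δ12/Δ12 and the whole KO line. Each set held 15 libraries labelled cortex and 15 labelled striatum. The summed level of 8 striatal neuron markers was 1071 to 2068 rescaled FPKM in the striatum-like set and 106.1 to 561.7 in the cortex-like set, with no marker at 0 throughout a set. Rescaled FPKM are the deposited values after each library was brought to a common scale. The labels of sex were also contradicted in part. Xist, the transcript of the inactive X chromosome, was above the Y-linked Ddx3y in 15 of 30 libraries labelled female and in 15 of 30 labelled male, so that 30 of 60 libraries went against their label, among them 7 of 12 labelled Δ12/Δ12. Male and female are used here as labels. The sets were made from expression, so they are described here and not tested against each other. In such bulk tissue, fewer cells of a type and less RNA per cell cannot be told apart.

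Bdnf lies on the plus strand at chr2:109674700-109727007 (ENSMUSG00000048482), and GENCODE M21 on GRCm38 lists 11 transcripts for it, many of which start at alternative first exons. Of its 7 RefSeq windows of 250 bases upstream of a start site, 1 held the core of the cAMP response element, ACGTCA on either strand, through which CREB acts on genes induced by activity. The same letters stand in 6.47% of all 32851 windows, and the CACGTG E-box stands in 6.02% of them and in none of Bdnf's. The 100 bases before the start site at 109692436 are shown because Bdnf is the member best known for a response to neuronal activity, with the match in capitals, at position -36 from the start.
Bdnf, chr2:109692336-109692435, plus strand, GRCm38.p6: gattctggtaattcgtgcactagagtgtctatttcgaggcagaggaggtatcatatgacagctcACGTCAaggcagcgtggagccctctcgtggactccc
The FPKM are for the gene as a whole and do not tell which first exon was used.

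Bdnf was the member with the largest ratio between the medians of the sets. It ranged from 2.01 to 6.83 rescaled FPKM in the cortex-like libraries, with a median of 4.38. In the striatum-like libraries it ranged from 0 to 1.39, with a median of 0.360, and it was listed at 0 in 1 library, labelled cortex KO-line KO/+ (female 3). The sets did not overlap, and the ratio of their medians was 12.2. Of 16076 genes with a mean of at least 0.5, 36.2% likewise had no overlap between the sets. Within the striatum-like set Bdnf varied more than within the cortex-like set, with a coefficient of variation of 71.8% against 23.6%. Its interval bounds correspond to a median of 18.3 fragments per striatum-like library (0 to 118.6) and 284.6 per cortex-like library. Part of the wider spread may thus come from few fragments, which was not tested.

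**Figure D1:**
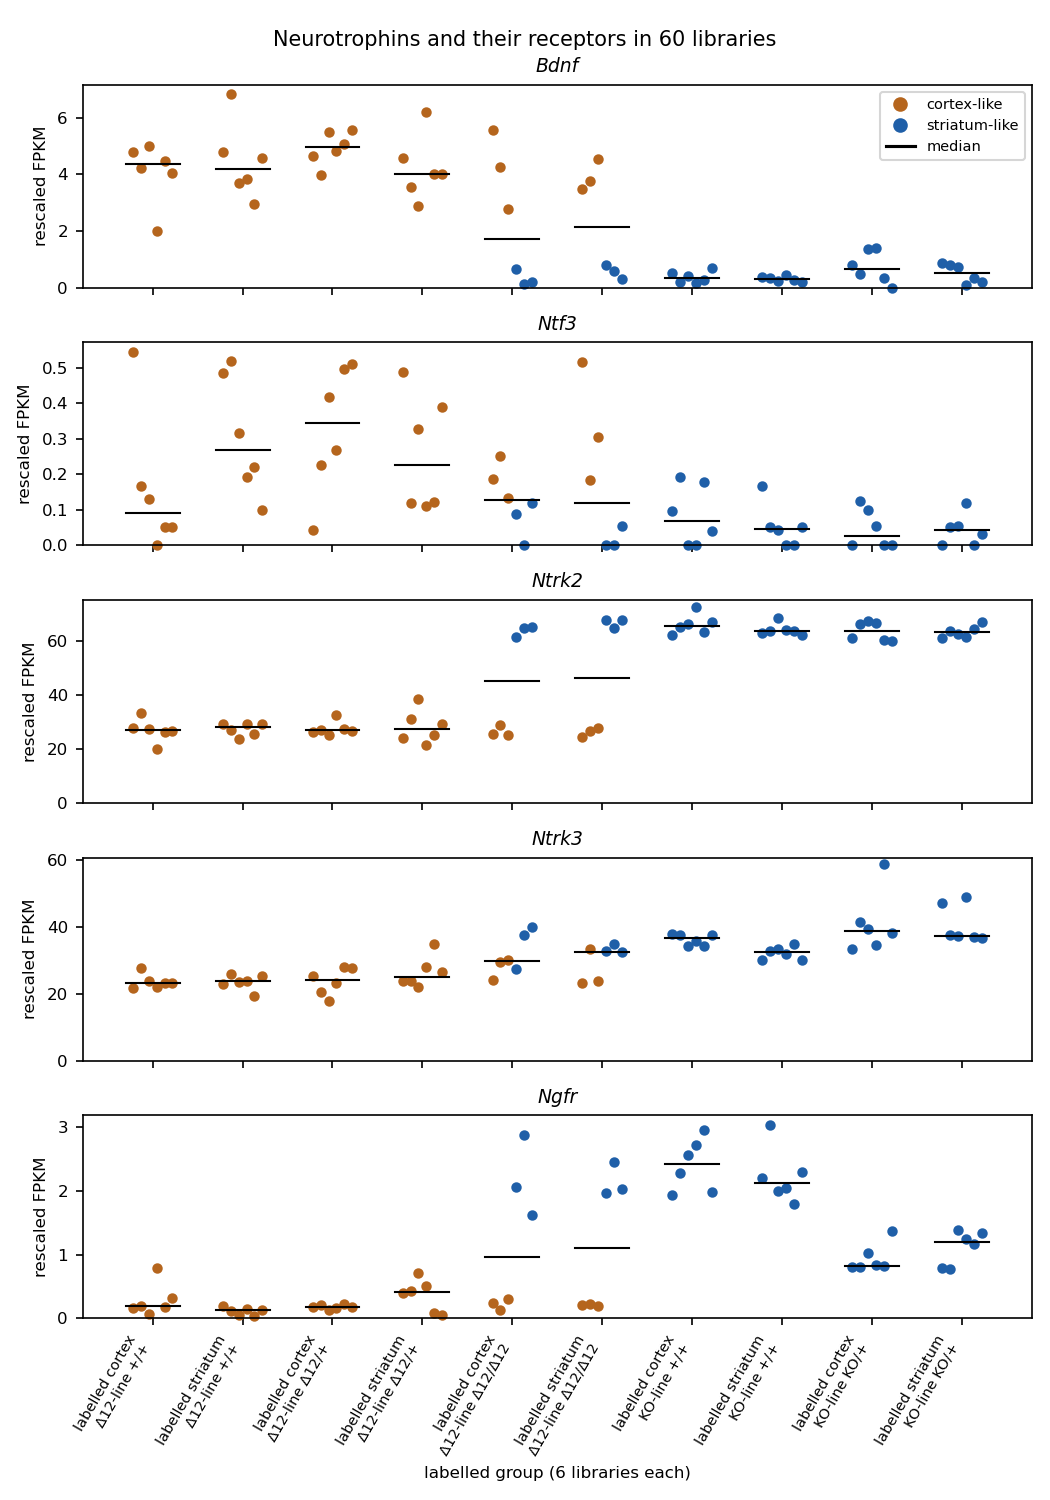
Rescaled FPKM (vertical axes, linear, from 0) of each member in each labelled group (horizontal axis), with 1 point per library coloured by expression set and a line at the group median. The 2 labelled Δ12/Δ12 groups hold points of both sets, Bdnf at 2.01 to 6.83 in the cortex-like set stands above 0 to 1.39 in the striatum-like set, and Ngfr in the labelled KO/+ groups stands below the labelled KO-line +/+ groups.

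The level of Bdnf within the striatum-like set followed that of the cortical neuron markers. The summed level of 6 such markers (among them Slc17a7, Tbr1, Neurod6, Cux2 and Fezf2) ran from 11.6 to 89.6 rescaled FPKM in these 30 libraries. On the log2 scale its correlation with Bdnf was r = 0.92 and rho = 0.92, and r = 0.89 without the 2 libraries farthest from the median marker level. Within the 12 libraries labelled KO/+ r was 0.95 and rho 0.92, and within the other 18 r was 0.85 and rho 0.83. In the cortex-like set, where the markers ran from 119.1 to 224.7, r was 0.57 and rho 0.65 (n = 30). These points share their scaling factor, and Slc17a7, 1 of the 6 markers, defined the sets. Slc17a7 made up 197.5 of the highest sum, 224.7, and 69.6 of the highest striatum-like sum, 89.6. Of the lowest sum, 11.6, Slc17a7 made up 5.60. The sum thus follows Slc17a7 in large part.

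Per 100 of the summed cortical markers, Bdnf stood at a median of 1.42 in the striatum-like libraries (range 0 to 2.35) and 2.36 in the cortex-like libraries (range 1.17 to 3.40). The ranges of this ratio overlapped between the sets, and the share of Slc17a7 in the summed markers was not the same in all libraries. The 2 striatum-like libraries with the most Bdnf, labelled cortex KO-line KO/+ (female 1, 1.39, and male 3, 1.37), also had the highest Slc17a7 of the set, at 53.9 and 64.8 FPKM as deposited. How far cortical tissue in these libraries contributes to their Bdnf was not tested.

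**Figure D2:**
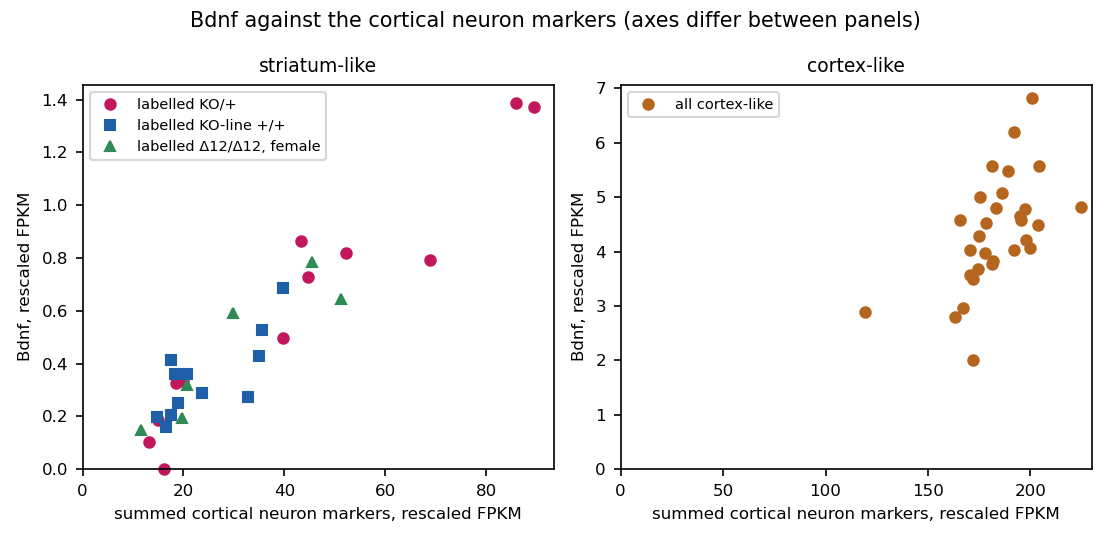
Bdnf (vertical axis) against the sum of 6 cortical neuron markers (horizontal axis), both in rescaled FPKM, for the 30 striatum-like libraries by label (left) and the 30 cortex-like libraries (right), with 1 point per library and different axis ranges. On the left Bdnf runs from 0 to 1.39 and the markers from 11.6 to 89.6, with higher Bdnf toward higher markers. On the right Bdnf runs from 2.01 to 6.83.

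Ntf3 lies on the minus strand at chr6:126101412-126166910 (ENSMUSG00000049107) and was close to the limit of detection everywhere. It ranged from 0 to 0.545 rescaled FPKM (median 0.224) in the cortex-like set and from 0 to 0.192 (median 0.0472) in the striatum-like set, and it was listed at 0 in 1 and 12 libraries. All 30 striatum-like libraries were within the range of the cortex-like ones. Its interval bounds correspond to at most 11.6 fragments per library in the cortex-like set and 2.35 in the striatum-like set, so its values rest on few fragments. Of its 2 RefSeq windows, 1 held the CACGTG E-box and none the ACGTCA core. Ntf3 passed the filter in none of the 9 fits.

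Among the receptors, Ntrk2 had the highest median level in both sets. It lies on the plus strand at chr13:58806596-59133970 (ENSMUSG00000055254), with 10 GENCODE transcripts, among them those of the kinase-containing and the truncated TrkB, which the deposited gene-level values do not separate. It ranged from 19.8 to 38.4 rescaled FPKM (median 26.9) in the cortex-like set and from 59.8 to 72.4 (median 64.2) in the striatum-like set, a ratio of medians of 2.39 with no overlap. Its spread was small in the striatum-like set, with a coefficient of variation of 4.40% against 13.1% in the cortex-like set.

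Ntrk3 lies on the minus strand at chr7:78175959-78738012 (ENSMUSG00000059146), and its 20 GENCODE transcripts also include truncated forms. It ranged from 17.9 to 34.9 rescaled FPKM (median 24.0) in the cortex-like set and from 27.4 to 58.8 (median 36.3) in the striatum-like set. These ranges overlapped, with 12 striatum-like libraries inside the cortex-like range. Ntrk2 was above Ntrk3 in 30 of 30 striatum-like and in 22 of 30 cortex-like libraries, and the ratio of Ntrk2 to Ntrk3 had a median of 1.81 (range 1.02 to 2.24) and 1.12 (range 0.726 to 1.74), respectively. The antisense gene Gm9885 overlaps Ntrk3 and reached at most 0.859 rescaled FPKM.

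Ngfr lies on the minus strand at chr11:95568818-95587735 (ENSMUSG00000000120), with 1 GENCODE transcript. It ranged from 0.0456 to 0.785 rescaled FPKM (median 0.186) in the cortex-like set and from 0.769 to 3.04 (median 1.96) in the striatum-like set, a ratio of medians of 10.5, with 1 library of each set inside the other's range. Its interval bounds correspond to 3.00 to 56.1 fragments per cortex-like library and 37.6 to 198.5 per striatum-like library. The levels of the 5 members, which FPKM gives per length, fell in the order Ntrk2, Ntrk3, Bdnf, Ntf3, Ngfr by their medians in the cortex-like set, where Ntrk2 and Ntrk3, and Ntf3 and Ngfr, overlapped as neighbours. In the striatum-like set the order was Ntrk2, Ntrk3, Ngfr, Bdnf, Ntf3, where Ntrk2 did not overlap Ntrk3 and each lower pair of neighbours from Ngfr down did.

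The comparison of KO/+ with +/+ within the KO line asks what the loss of 1 Htt allele does, and all of its libraries were striatum-like. Ngfr was lower in the libraries labelled KO/+ in both labelled tissues. In labelled striatum it was at 0.769, 0.798, 1.17, 1.24, 1.35 and 1.39 rescaled FPKM in KO/+, against 1.80, 2.00, 2.05, 2.21, 2.31 and 3.04 in +/+. The groups did not overlap, as in 4.58% of the genes tested. The fitted log2 fold change was -0.76 (SE 0.13, 95% interval -1.05 to -0.47, limma adjusted p = 0.00971), and 6.91% of the 15808 genes tested in this comparison were called at an adjusted p under 0.05.

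In labelled cortex Ngfr was at 0.808, 0.812, 0.817, 0.833, 1.03 and 1.38 rescaled FPKM in KO/+, against 1.94, 1.99, 2.28, 2.57, 2.73 and 2.95 in +/+. Again no library of one group entered the range of the other, which held for 1.41% of genes. The log2 fold change was -1.01 (SE 0.11, 95% interval -1.26 to -0.76, limma adjusted p = 0.0155). Here only 14 of 15820 genes, or 0.0885%, were called, and Ngfr had the second smallest p of all genes tested. In the exact permutation test, two-sided and within labelled sex, p was 0.005 in each labelled tissue, the smallest that 400 relabelings can give. By Xist and Ddx3y, 5 of 6 +/+ and 1 of 6 KO/+ libraries of labelled cortex went against their label of sex. In labelled striatum 4 of 6 +/+ and 1 of 6 KO/+ libraries did.

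All 12 libraries labelled KO/+, at 0.769 to 1.39, were thus below the other 18 striatum-like libraries, at 1.63 to 3.04, a group that includes the 6 females labelled Δ12/Δ12 at 1.63 to 2.88. Of 15959 genes, 12 or 0.0752% likewise had no overlap between these 12 and 18 libraries. The labels do not say whether libraries labelled cortex and striatum came from the same mice. The 12 libraries may thus stand for fewer mice, and the results of the labelled tissues may not be independent. The interval bounds of Ngfr correspond to 37.6 to 122.5 fragments in the 12 libraries and 88.9 to 198.5 in the 12 labelled KO-line +/+. The call was lost in both labelled tissues when all 30 libraries of the tissue shared 1 estimate of the spread (limma adjusted p = 0.450 in striatum and 0.733 in cortex), and in cortex without the +/+ library male 2 (0.0617). The 30 libraries include the Δ12/Δ12 group, which mixes the expression sets. Its SD of Ngfr was 1.08 rescaled FPKM in labelled striatum, against 0.27 in KO/+ and 0.43 in KO-line +/+. In labelled cortex these were 1.15, 0.23 and 0.41. What this mixing did to the shared estimate was not tested.

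Markers of several cell types moved in the same libraries. In labelled striatum, 4 of 5 oligodendrocyte and 2 of 6 astrocyte markers tested were lower and 6 of 8 striatal and 2 of 6 cortical neuron markers were higher in KO/+. The summed oligodendrocyte markers were 828.2 to 940.3 rescaled FPKM in KO/+ and 1012 to 1216 in +/+ of labelled striatum, and 740.1 to 1024 against 839.0 to 1088 in labelled cortex, where none of the 5 was called. The 4 choroid plexus markers summed to 184.7 to 2090 (median 1377) in KO/+ and 45.1 to 809.0 (median 379.5) in +/+ of labelled cortex. In labelled striatum they summed to 329.5 to 1378 in KO/+ and 350.5 to 1663 in +/+. None of these 4 was called in either labelled tissue. Cholinergic neurons of the basal forebrain are among the adult neurons richest in p75. The markers used here are of cholinergic neurons in general and do not tell where those neurons lie. The 4 cholinergic markers (Chat, Slc5a7, Slc18a3 and Ecel1) summed to 20.5 to 25.3 in KO/+ and 22.6 to 52.3 in +/+ of labelled striatum, and to 17.3 to 29.2 against 27.1 to 41.6 in labelled cortex, with none called in either and none at 0 throughout a group. Over the 30 striatum-like libraries, Ngfr had r = 0.64 and rho = 0.62 with the cholinergic sum and r = 0.68 and rho = 0.69 with the oligodendrocyte sum. Within the 12 labelled KO/+ and the other 18 libraries these were r = 0.45 and 0.50 for the cholinergic sum and r = 0.62 and 0.01 for the oligodendrocyte sum. The part of these cell types in the Ngfr difference was not tested.

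Htt did not separate the libraries in the way Ngfr did. Among the striatum-like libraries the widest step in Htt, on FPKM as deposited, left 6 libraries at 11.6 to 12.6, all labelled KO/+, and 24 at 14.3 to 18.1, of which 6 were also labelled KO/+. After rescaling, the same 6 KO/+ libraries were again the lowest, at 12.7 to 15.7, and the next library was at 15.9. The other 6 KO/+ libraries were at 18.2 to 20.0. The widest step then left 3 libraries below it, at 12.7 to 13.9, so the place of that step depends on the scale. Ngfr was at 0.769 to 1.35 rescaled FPKM (median 0.815) in the 6 KO/+ libraries with low Htt and at 0.798 to 1.39 (median 1.10) in the 6 KO/+ libraries with high Htt. These ranges overlap, and both lie below the 18 striatum-like libraries of other labels. When the KO/+ libraries with high Htt were left out, the log2 fold change of Ngfr was -0.77 (limma adjusted p = 0.122, no longer called) in labelled striatum and -1.12 (0.0311) in labelled cortex, with 3 KO/+ libraries in each.

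**Figure D3:**
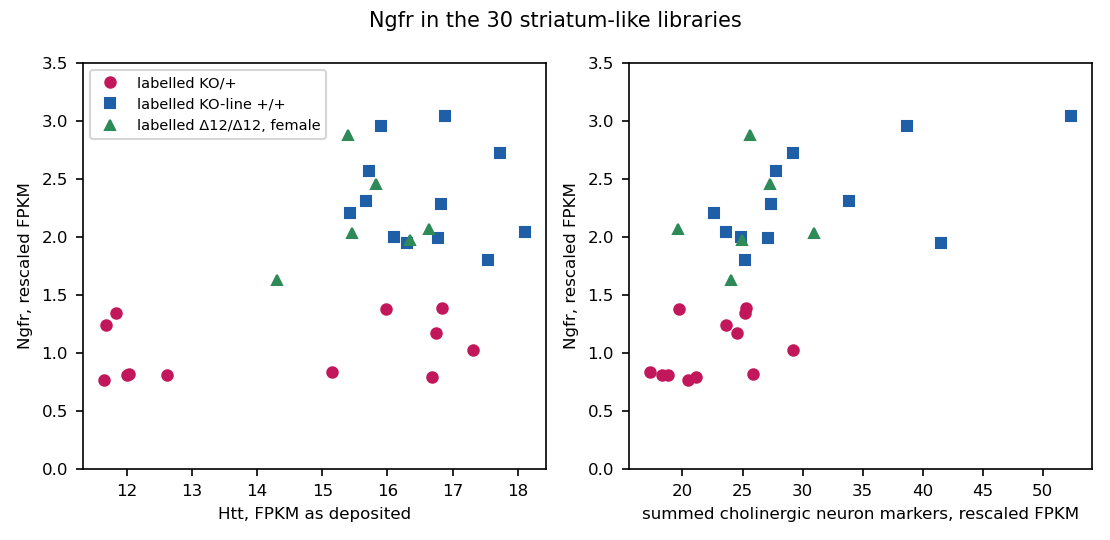
Ngfr in rescaled FPKM (vertical axes) against Htt in FPKM as deposited (left) and the sum of 4 cholinergic neuron markers in rescaled FPKM (right) for the 30 striatum-like libraries, with 1 point per library and symbols by label. The 12 labelled KO/+ libraries lie at 0.769 to 1.39 on both sides of the gap in Htt between 12.6 and 14.3, below all 18 others.

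Ntrk3 was higher in the labelled KO/+ libraries of striatum without passing the threshold. It was at 36.8 to 49.1 rescaled FPKM (median 37.5) in KO/+ and 30.1 to 35.1 (median 32.5) in +/+, groups that did not overlap, as in 4.58% of genes. Its log2 fold change was 0.33 (SE 0.088, limma adjusted p = 0.0503). The summed striatal neuron markers, of which 6 of 8 were called higher there, were at 1500 to 1953 in KO/+ and 1071 to 1425 in +/+, and their part in this difference was not tested. In labelled cortex KO/+ spanned 33.4 to 58.8 and +/+ 34.3 to 37.9, which overlapped, and the log2 fold change was 0.15 (SE 0.12, limma adjusted p = 0.623), or -0.02 on FPKM as deposited. Without the KO/+ library female 2, the highest in Ntrk3, it was 0.036. The 6 KO/+ libraries with low Htt had Ntrk3 at 33.4 to 58.8 and the 6 with high Htt at 34.6 to 47.2.

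Ntrk2 was close to level between the genotypes of the KO line. In labelled striatum it was at 61.1 to 66.9 rescaled FPKM in KO/+ and 61.9 to 68.2 in +/+, with a log2 fold change of -0.01 (95% interval -0.11 to 0.08). In labelled cortex it was at 59.8 to 67.1 and 62.2 to 72.4, with a log2 fold change of -0.06 (95% interval -0.18 to 0.07). With low and with high Htt among the KO/+ libraries it was at 60.0 to 66.9 and 59.8 to 67.1.

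No difference in Bdnf passed a test in the KO line. In labelled striatum, where it was under the filter, it was at 0.102 to 0.863 rescaled FPKM (median 0.527) in KO/+ and 0.205 to 0.430 (median 0.317) in +/+ (exact permutation p = 0.180). In labelled cortex it was at 0 to 1.39 (median 0.644) against 0.158 to 0.684 (median 0.351), with a log2 fold change of 0.37 (SE 0.30, limma adjusted p = 0.627), and it passed the filter there through the KO/+ libraries. The cortical neuron markers were spread in the same way, at 13.3 to 52.3 in KO/+ and 17.5 to 35.0 in +/+ of labelled striatum, and at 16.1 to 89.6 and 14.7 to 39.8 in labelled cortex. Ntf3, at 0 to 0.125 in KO/+ and 0 to 0.192 in +/+ over both labelled tissues, gave exact permutation p values of 0.785 in striatum and 0.445 in cortex, not adjusted, as for the other values under the filter.

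The comparison of Δ12/Δ12 with +/+ asks whether the loss of the exon 12 segment changes expression, but the libraries labelled Δ12/Δ12 mixed the 2 expression sets. In labelled striatum, Bdnf was at 3.49, 3.78 and 4.53 rescaled FPKM in the 3 males and 0.317, 0.591 and 0.784 in the 3 females, against 2.96 to 6.83 in the 6 +/+ libraries. The males thus lay within the range of +/+ and the females below it. Ngfr was at 0.193, 0.215 and 0.222 in the males and 1.98, 2.04 and 2.46 in the females, against 0.0456 to 0.192 in +/+. The groups did not overlap in Ngfr, the lowest male being at 0.193 and the highest +/+ library at 0.192, and 1.88% of genes had no overlap. Over all 12 libraries Bdnf had a log2 fold change of -1.16 (SE 0.31, limma adjusted p = 0.0335) and Ngfr one of 1.16 (SE 0.30, limma adjusted p = 0.0332), in a comparison where 28.3% of 15467 genes were called. Among libraries with Slc17a7 above 100 FPKM, the log2 fold change of Bdnf was -0.30 (limma adjusted p = 0.634), and with the set as a covariate that of Ngfr was 0.20 (0.481), so neither was called. Ngfr passed the filter only through the 3 females. Ntf3, under the filter, was at 0 to 0.516 (median 0.119) in Δ12/Δ12 and 0.0994 to 0.520 (median 0.269) in +/+, which overlapped (exact permutation p = 0.035).

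In labelled cortex the Δ12/Δ12 libraries divided in the same way. Bdnf was at 2.79, 4.28 and 5.58 rescaled FPKM in the males and 0.146, 0.195 and 0.644 in the females, against 2.01 to 5.01 in +/+. Ntrk2 was at 25.0, 25.5 and 28.9 in the males and 61.3, 64.6 and 64.9 in the females, against 19.8 to 33.4 in +/+. Ntf3 gave an exact permutation p of 0.910. None of the 4 members tested was called, with limma adjusted p from 0.0709 to 0.114, and 0.924% of 15696 genes were.

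The Δ12/+ libraries were all cortex-like, as were their +/+ controls, and Bdnf, Ntrk2 and Ntrk3 differed little between them. In labelled striatum Bdnf was at 2.89 to 6.21 rescaled FPKM in Δ12/+ and 2.96 to 6.83 in +/+ (log2 fold change -0.06, SE 0.20), and Ntrk2 and Ntrk3 changed by 0.02 (SE 0.13) and 0.16 (SE 0.11). In labelled cortex Bdnf was at 3.98 to 5.58 against 2.01 to 5.01 (log2 fold change 0.28, SE 0.18, or 0.11 without the +/+ library female 1), and Ntrk2 and Ntrk3 changed by 0.05 (SE 0.12) and -0.01 (SE 0.13). In labelled cortex Xist was above Ddx3y in 0 of 6 Δ12/+ and 5 of 6 +/+ libraries. Labelled genotype and sex by these transcripts can hardly be told apart there. No member was called, with limma adjusted p of at least 0.686, against 0.00663% of genes called in striatum and 0.0662% in cortex. Ngfr and Ntf3 were under the filter in both. In labelled striatum it was at 0.0565 to 0.710 (median 0.417) in Δ12/+ and 0.0456 to 0.192 (median 0.125) in +/+, which overlapped (exact permutation p = 0.040, not adjusted for the members under the filter), and in cortex at 0.128 to 0.223 and 0.0680 to 0.785 (p = 0.420). Ntf3 was at 0.111 to 0.487 (median 0.225) against 0.0994 to 0.520 (median 0.269) in striatum (exact permutation p = 0.595) and at 0.0438 to 0.512 (median 0.344) against 0 to 0.545 (median 0.0923) in cortex (p = 0.150).

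**Figure D4:**
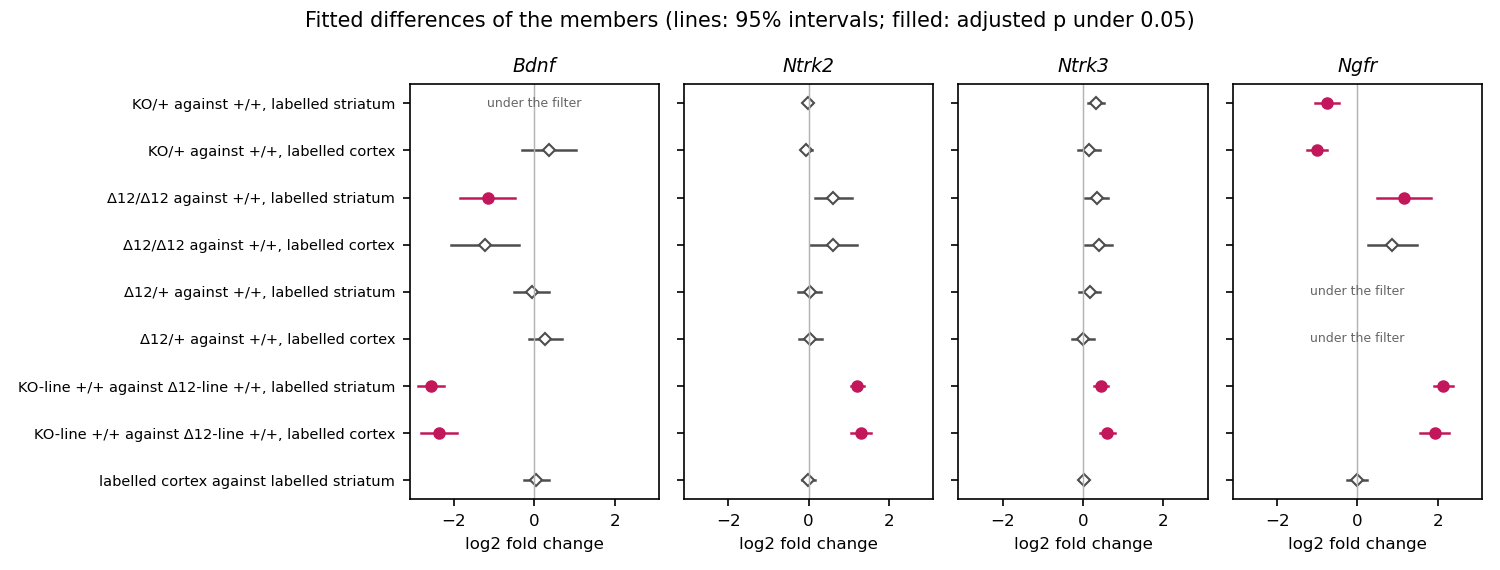
Log2 fold changes of Bdnf, Ntrk2, Ntrk3 and Ngfr on the log2(rescaled FPKM + 0.5) scale (horizontal axes) in the 9 comparisons (vertical axis), with lines for 95% intervals and filled points for a limma adjusted p under 0.05. Ngfr is at -0.76 and -1.01 for KO/+ against +/+, while the largest differences are between the +/+ groups of the lines, whose libraries belong to different expression sets. Ntf3 was under the filter in all 9.

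The +/+ groups of the lines, both unedited, differed in the way the expression sets did. In KO-line against Δ12-line +/+ of labelled striatum, Bdnf had a log2 fold change of -2.57 (SE 0.15), Ngfr 2.14 (SE 0.10), Ntrk2 1.21 (SE 0.069) and Ntrk3 0.45 (SE 0.079), and in labelled cortex these were -2.38 (SE 0.21), 1.93 (SE 0.17), 1.29 (SE 0.11) and 0.61 (SE 0.084). All 4 were called in both, among 79.4% and 68% of all genes tested, and none overlapped, as in 62.6% and 51.1% of genes. In both, Bdnf passed the filter only through the Δ12-line libraries and Ngfr only through those of the KO line. Ntf3 was at 0 to 0.168 (median 0.0472) in the KO line and 0.0994 to 0.520 (median 0.269) in the Δ12 line of labelled striatum, which overlapped (exact permutation p = 0.005), and in cortex p was 0.445. Each line held 1 expression set here, so line and set cannot be told apart in these calls. The 6 females labelled Δ12/Δ12, which belong to the Δ12 line by label and to the striatum-like set by expression, had Bdnf at 0.146 to 0.784, Ntrk2 at 61.3 to 67.5 and Ngfr at 1.63 to 2.88 rescaled FPKM. The libraries labelled cortex and those labelled striatum, 30 of each, differed by at most 0.05 on the log2 scale in these 4 members (95% interval for Bdnf -0.25 to 0.36), with limma adjusted p of at least 0.99998. In that comparison 0% of 16076 genes were called, and 418 had an unadjusted p under 0.05 in limma.

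Of the further ligands and receptors of the pathway, Sort1, which encodes the sorting receptor sortilin, was at 24.5 to 40.8 rescaled FPKM (median 30.0) in the cortex-like set and 40.7 to 52.3 (median 46.1) in the striatum-like set. In KO/+ against +/+ of labelled striatum, 0 of the 8 other ligands and receptors tested were called, with a median log2 fold change of 0.19 beside 0.02 over all genes. The smallest adjusted p among them was that of Sort1 (log2 fold change 0.16, SE 0.049, limma adjusted p = 0.0733).

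Of the 13 genes tested for the processing, sorting and transport of BDNF, 0 were called, with a median of -0.01. Of the 25 adaptors and effectors of the receptors, 2 rose, among them the exchange factor gene Rapgef1 (log2 fold change 0.20, SE 0.050, limma adjusted p = 0.0383), and none fell. Of the 13 regulators of Bdnf transcription, 1 rose, the CREB coactivator gene Crtc1 (0.40, SE 0.089, 0.0230). Of the 12 genes induced by BDNF or activity, 2 rose, Homer1, a scaffold of the postsynaptic density (0.39, SE 0.084, 0.0205), and the neuropeptide gene Npy (0.39, SE 0.084, 0.0215). These 5 of 71 genes, or 7.04%, compare with the 6.91% of all genes called. In labelled cortex none of the 72 genes of these lists tested was called.

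In Δ12/Δ12 against +/+ of labelled striatum, where the sets were mixed, 7 of 26 adaptors and effectors rose and none fell. In the same comparison 2 of 9 other ligands and receptors rose (Sorcs2 by 1.11, SE 0.30, limma adjusted p = 0.0344, and Sort1 by 0.38, SE 0.11, 0.0372). Of the 13 processing and transport genes 1 rose and 3 fell, the last including Serpini1, the protease inhibitor neuroserpin (-1.94, SE 0.49, 0.0319). Of the 12 regulators of Bdnf transcription and the 12 genes induced by BDNF or activity, 2 rose and 1 fell in each list. These 19 of 72 genes, or 26.4%, compare with 28.3% of all genes. In labelled cortex, and in Δ12/+ of both labelled tissues, none of these lists had a called gene.

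The genes whose level was most like that of a member were sought among 14072 genes with a mean of at least 0.5 rescaled FPKM in both sets, by the lower of the 2 correlations within a set (30 libraries each). Only Ntrk2 and Ntrk3 met that mean. For Ntrk2 they were Gnaq (r = 0.75 in the cortex-like and 0.73 in the striatum-like set), Sox11 (0.68 and 0.63) and Dok6 (0.60 and 0.69). For Ntrk3 they were Nab2 (0.55 and 0.68), Klf10 (0.53 and 0.49) and Zfp644 (0.49 and 0.62). Ntrk3 also had r = 0.73 and rho = 0.65 with the summed striatal neuron markers within the striatum-like set, and r = -0.32 and rho = -0.37 within the cortex-like set. With the summed immediate early genes, which neuronal activity induces, these were r = 0.59 and rho = 0.64 (0.52 for r without the 2 libraries farthest from the median) and r = 0.34 and rho = 0.36. The correlations with marker sums given for Bdnf, Ngfr and Ntrk3 are a selection from 280 computed between members and marker sums or Htt. How many other genes reach as large an r is not reported here.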

How the data were processed

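RNA-Seq was measured in 60 mouse libraries. The authors deposited 1 table of FPKM values per library (fragments scaled to transcript length and to the mapped fragments of the library, with interval bounds), in the layout of Cufflinks gene-level output. The submitters' notes name GRCm38.p4, bcl2fastq 2.20, Trimmomatic 0.30, TopHat2 2.0.14, SAMtools 1.3 and HTSeq 0.6.1p1. The step that gave the FPKM and its annotation release are not given in the sources used here. These tables hold no counts, so the depth is unknown. Fragments per gene can be read from the interval bounds only roughly, since the intervals of genes with several transcripts also hold the uncertainty of assigning fragments to transcripts.

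From the 47597 entries per table, 23 were dropped because their status was not OK in every library. Each library was divided by its median ratio to the geometric means of the 13235 entries above 0 in all 60 libraries, which gave the rescaled FPKM. A pseudocount of 0.5 was added on the log2 scale. Each of the 8 comparisons of labelled groups was fitted with limma 3.58.1 in R 4.3.3 on 12 libraries, with labelled sex as a covariate, over entries whose rescaled FPKM averaged 0.5 or more, and p-values were adjusted over all of them by Benjamini-Hochberg. The ninth fit set all libraries labelled cortex against all labelled striatum. Genes under the filter were given an exact two-sided permutation test over the 400 relabelings within labelled sex. Fold changes are on the log2(rescaled FPKM + 0.5) scale, so those of low genes are too small. The script was tested on simulated data. The gene lists were written by hand, and up to 3 genes per list are named, those with the smallest adjusted p. Some genes of the lists are counted but not reported by name here. The 5 members, the lists and the rules were chosen with earlier results of these data known. Promoter windows were RefSeq's on GRCm38.p6.

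Libraries were grouped as labelled. In the third female of striatum KO-line KO/+, title and genotype label give different lines, and the genotype label was followed. The labels give no source for pairing libraries by replicate number. No word of the labels states whether libraries of a group came from separate dissections, so p-values measure the spread between these libraries. The alternatives were the FPKM as deposited, quantile normalization, another pseudocount, no filter, a replicate block, no sex covariate, all libraries of a labelled tissue in 1 fit, the expression set as a covariate or as a restriction, and each library left out. Scaling within each fit, and leaving out labelled KO/+ libraries with high Htt, were added after the data were seen.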

Additional observations from a re-analysis of the deposited data

Results flagged for a closer look

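In 8 of the 50 pairs of a member and a labelled group of 6, 1 library stood apart by a gap, as a share of the group's range, above Dixon's 95% critical value. Chance gives such a gap in about 1 of 20 groups. In the group cortex Δ12-line +/+, the female 1 had the lowest Bdnf, at 2.01 rescaled FPKM against 4.06 to 5.01 in the others, and the highest Ngfr, at 0.785 against 0.0680 to 0.328. The same library had the lowest Htt of all 60, at 6.39 FPKM as deposited, and Ntf3 at 0. In that group the male 1 had the highest Ntf3, at 0.545 against 0 to 0.166, and the male 2 the highest Ntrk3, at 27.9 against 21.8 to 24.0. Ntf3 was also highest in the male 1 of striatum KO-line +/+, at 0.168 against 0 to 0.0507. Ntrk2 was highest in the female 1 of cortex Δ12-line Δ12/+, at 32.7 against 25.3 to 27.4, and in the male 3 of striatum KO-line +/+, at 68.2 against 61.9 to 64.0. Ntrk3 was highest in the female 2 of cortex KO-line KO/+, at 58.8 against 33.4 to 41.5.

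In 1 of 40 pairs of a member and a comparison, the labelled sexes moved apart. In Δ12/+ against +/+ of labelled cortex, Ntrk2 was lower in every library labelled male and higher in every one labelled female. The difference over both labelled sexes was 0.047 on the log2 scale, and the difference between them was not tested. Xist was above Ddx3y in 0 of these 6 Δ12/+ libraries and in 5 of the 6 +/+ libraries. By these transcripts the Δ12/+ libraries labelled female were thus not female.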

How the results depend on the processing

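The number of members called among the 5 was compared with that under each alternative, and the cause of each change was not tested. For KO/+ against +/+ the count of 1 (Ngfr) became 0 with the replicate block in both labelled tissues (limma adjusted p of Ngfr 0.0571 in striatum and 0.148 in cortex) and 0 with all 30 libraries of the labelled tissue in 1 fit. In striatum it became 2 without the sex covariate (Ntrk3, adjusted p = 0.0393) and 0 without the KO/+ libraries of high Htt. For Δ12/Δ12 in striatum the count of 2 became 4 with quantile normalization or all 30 libraries, 1 with no filter, and 0 with the replicate block, without the sex covariate, with the set as a covariate or with Slc17a7 above 100 FPKM, and in cortex the count of 0 became 4 with all 30 libraries. With each library left out, the counts were 1 throughout for KO/+ in striatum, 0 to 1 in cortex, 0 to 4 for Δ12/Δ12 in striatum and 0 to 2 in cortex. Libraries of the same replicate number in the 2 groups of a comparison did not deviate together (mean r between -0.07 and 0.03 over the 8 comparisons). Libraries labelled cortex and striatum with the same number were not compared in this way.

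The direction of 13 fitted values reversed under an alternative, and none of these was called under either. Ntrk2 in KO/+ of striatum was 0.0037 without the KO/+ libraries of high Htt, and Ntrk3 in KO/+ of cortex was -0.017 on FPKM as deposited. Ntrk2 in Δ12/Δ12 was -0.018 in striatum and -0.15 in cortex with the set as a covariate or with Slc17a7 above 100 FPKM. In Δ12/+, Ntrk2 in striatum was -0.030 on FPKM as deposited, and Ntrk3 in cortex was 0.058 on FPKM as deposited, 0.11 with quantile normalization and 0.0041 with scaling within the fit. Between the labelled tissues, Ngfr was 0.011 with quantile normalization and 0.019 with a pseudocount of 0.1, and Ntrk3 was -0.026 with Slc17a7 above 100 FPKM. With each library left out, the log2 fold change of Ngfr in KO/+ stayed between -0.82 and -0.67 in striatum and between -1.08 and -0.97 in cortex. That of Ntrk2 ran from -0.032 to 0.0065 in KO/+ of striatum, from -0.069 to 0.093 in Δ12/+ of striatum and from -0.037 to 0.11 in Δ12/+ of cortex, that of Bdnf from -0.18 to 0.074 in Δ12/+ of striatum, and that of Ntrk3 from -0.052 to 0.066 in Δ12/+ of cortex.

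The labels of tissue, and in part of sex, go against the markers. Htt does not follow the KO/+ label in all libraries, on the deposited or the rescaled scale, and no other measure of genotype was made. A fitted difference therefore holds for labels. Depth is unknown, and Ntf3 rests on few fragments throughout. Ngfr rests on few fragments in the cortex-like set, and so does Bdnf in many striatum-like libraries. The values of Ntrk2, Ntrk3 and Bdnf sum transcripts that encode different receptors or start at different exons.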

Other observations

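Of the 12 genes in which the libraries labelled KO/+ did not overlap the other 18 striatum-like libraries, 11 were other than Ngfr, and the genes named here were looked at after their values were seen. Agt, the gene of angiotensinogen, which astrocytes express, was at 6.03 to 11.1 rescaled FPKM in the 12 libraries and 11.3 to 27.1 in the 18. Slc6a11, a GABA transporter gene of astrocytes, was at 15.3 to 23.0 against 25.1 to 44.7, and Sparc, a secreted matrix protein gene of glia and vessels, at 60.3 to 78.3 against 82.6 to 122.4. Nin, a centrosomal protein gene, was the 1 gene of the 12 that was higher, at 6.66 to 8.13 against 4.60 to 6.57.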
